A study of Mus musculus with 24 samples.

Results

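Bone marrow macrophages kept for 5 days in macrophage colony-stimulating factor (M-CSF) without the osteoclast-inducing cytokine RANKL were compared between the genotypes of a Runx1 gain-of-function model. The comparison was defined by the sample labels: 3 libraries from LysM-Cre;Rosa26-Runx1tg/+ cells and 3 from Rosa26-Runx1tg/+ control cells, that is 6 of 24 RNA-seq libraries. Both groups carried the Runx1 transgene in Rosa26. The LysM-Cre cells also carried Cre under the myeloid promoter of the lysozyme 2 gene Lyz2, by which the transgene would be switched on, and the control cells, which the labels call wild type, carried no Cre. The other 18 libraries are the same genotypes at day 3 without RANKL and at days 3 and 5 with it. Per the labels' protocols, marrow was flushed from long bones, red cells were lysed, macrophages were expanded on petri dishes and 15000 cells were seeded per well. No source used here gives the dose of M-CSF in the wells without RANKL, or the age or sex of the mice.

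Runx1 is a DNA-binding transcription factor that pairs with Cbfb, is required for the formation of blood stem cells and acts in the myeloid lineage together with factors such as PU.1. M-CSF acts through the receptor kinase Csf1r and keeps macrophages alive and dividing, and a culture in M-CSF alone holds the precursors from which RANKL makes osteoclasts. The question of this comparison is what the Runx1 genotype did to these precursors when no osteoclast signal was given.

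No gene passed the threshold between the genotypes in these 6 libraries. With edgeR's quasi-likelihood test and Benjamini-Hochberg adjustment over 15035 tested genes, 0 genes (0%) had an adjusted p under 0.05, and the smallest adjusted p was 0.0688, for the adhesion gene Nectin1. An unadjusted p under 0.05 was reached by 948 genes (6.31%), of which 598 (3.98%) lay higher and 350 (2.33%) lower in LysM-Cre cells. DESeq2 called 2 genes, Nectin1 and Ptgfrn. It had 1084 at an unadjusted p under 0.05 among 29355 tested genes, a wider set than that of edgeR, so the 2 counts are not on the same base. The precision allowed most genes a narrow bound. The 95% interval lay within 1 log2 unit of 0 for 10259 genes (68.2%), and among the 11031 genes with an average of at least 1 log2 CPM (counts per 1000000 of the scaled library) it did so for 9907 (89.8%), with a median half-width of 0.31 log2 units. Over all tested genes the 5th and 95th percentiles of the difference were -0.68 and 0.70. The numbers 1 to 3 in the labels are not said to mark animals, cultures or days, so p-values measure only the spread between these samples, which may be technical.

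**Figure D1:**
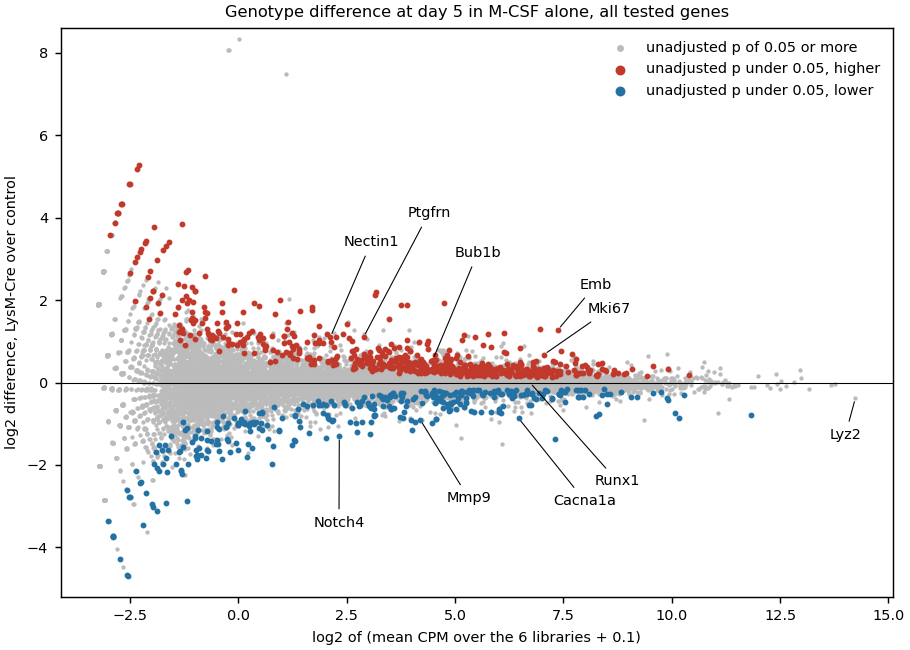
Difference between genotypes at day 5 in M-CSF alone (vertical axis, log2 LysM-Cre over control) against mean level over the 6 libraries (horizontal axis, log2 CPM) for each tested gene with an estimate. Coloured points are the 598 genes higher and the 350 genes lower at an unadjusted p under 0.05, none of which passed the adjusted threshold, and the spread of the differences widens towards low levels.

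Library totals ran from 21133127 to 23749966 counts in LysM-Cre cells and from 19122122 to 20789317 in control cells, so the totals did not overlap between the groups, and 1 count was worth 0.0426 to 0.0542 CPM. Mitochondrial transcripts took 1.57% to 1.78% of counts in LysM-Cre cells and 1.52% to 1.55% in control cells. The LysM-Cre library of number 3 stood apart from numbers 1 and 2. It held 565 counts from 4 genes of the Y chromosome (Ddx3y, Eif2s3y, Kdm5d, Uty) and 2 from the X-linked Xist, whereas the other 5 libraries together held 1 count from those Y-linked genes and each held at least 15648 from Xist. On the first principal component (30.8% of the variance) the LysM-Cre libraries 1, 2 and 3 lay at 36.0, 25.5 and -25.2, against 0.0677, -1.39 and -35.0 for controls 1, 2 and 3. Over the series, the 4 LysM-Cre libraries of number 3 held 542 to 847 counts from the Y-linked genes and 2 to 12 from Xist. Some results are given with and without number 3, others from 1 fit only. The fit without it leaves out all 4 LysM-Cre libraries of number 3.

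Runx1 itself, on chromosome 16 (92601466 to 92826149), checks the genotype label. Its level was 107, 110 and 102 CPM in the LysM-Cre libraries 1, 2 and 3, against 115, 109 and 92.5 CPM in the control libraries. The 2 groups overlapped, and the log2 difference was 0.00 (interval -0.28 to 0.29), well inside 1 log2 unit on either side. Without the number 3 set it was 0.03 (interval -0.24 to 0.31). No source used here says whether transgene reads would fall on the Runx1 row. The libraries are therefore called LysM-Cre by their label throughout, and no direction below is read as an effect of a measured Runx1 level. The Lyz2 locus that carries Cre gave a second check. Lyz2 stood at 13700, 13100 and 23400 CPM in LysM-Cre cells, against 18700, 23200 and 23700 CPM in control cells. Numbers 1 and 2 lay below all controls and number 3 lay among them. The log2 difference over all 6 libraries was -0.38 (interval -0.99 to 0.23). Lyz1, the neighbouring and near-identical lysozyme gene, had 34.1, 29.5 and 5.67 CPM in LysM-Cre cells, against 6.58, 4.60 and 7.63 CPM in control cells. Number 3 again lay among the controls. Over the whole series, Lyz1 gave 2.24 to 5.79 counts per 1000 Lyz2 counts in the 8 LysM-Cre libraries of numbers 1 and 2, 0.242 to 0.484 in the 4 of number 3, and 0.198 to 0.545 in the 12 control libraries. Reads can be shared between these copies, and the part of that sharing in the ratio was not tested.

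The culture had the transcripts of macrophages in both genotypes. The macrophage list, which holds Adgre1, Cd68, Mertk and Lyz2 among others, summed to 33300 to 42400 CPM in LysM-Cre cells and 38200 to 42700 CPM in control cells, and 19 of its 22 genes had an interval within 1 log2 unit of 0. Its median difference was 0.02, beside 0.00 over all tested genes, and no member had an unadjusted p under 0.05. Csf1r, the M-CSF receptor, had a difference of 0.01 (interval -0.40 to 0.42), and 19 of 26 genes of its signalling list had an interval within 1 log2 unit of 0, with a median of -0.01. Markers of other cells were present in part. Of 13 lymphoid genes, 4 had 0 counts in all 6 libraries, among them Cd3e and Cd3g of the T cell receptor complex, but the list summed to 81.7 to 113 CPM in LysM-Cre cells and 96.3 to 108 CPM in control cells. Most of that sum was Il7r, a cytokine receptor, at 65.0, 54.2 and 83.5 CPM in LysM-Cre cells, against 77.2, 72.9 and 70.8 CPM in control cells, followed by the immunoglobulin gene Ighm and the co-receptor gene Cd4, where LysM-Cre number 1 had 14.3 CPM and the controls at most 3.45 CPM. Of 11 mast cell genes, 7 had 0 counts, Cpa3 and Fcer1a among them, and the sum was below 1 CPM in every library. Hba-a1 and Hbb-bt of red cells also had 0 counts, so that the erythroid and megakaryocyte list, at 570 to 1310 CPM in LysM-Cre cells and 1460 to 1530 CPM in control cells, consisted almost wholly of Pf4, which is described below. Monocyte genes summed to 447 to 539 CPM in LysM-Cre cells and 422 to 523 CPM in control cells, with a median difference of 0.20 over 13 tested genes. Of these 13, 5 had a negative difference, from -0.39 for Plac8 to -0.03 for F13a1. In the higher direction 2 had an unadjusted p under 0.05 (3.98% of all tested genes). They were the sialoprotein gene Spn (0.99, interval 0.24 to 1.74) and Ms4a4c (1.42, interval 0.06 to 2.78). Ccr2, the receptor for Ccl2, had 22.8, 31.9 and 9.55 CPM in LysM-Cre cells, against 10.3, 8.83 and 7.37 CPM in control cells (1.28, interval -0.09 to 2.65). Number 3 lay among the controls for Spn and Ccr2 and above them for Ms4a4c. Stromal genes summed to 29.9 to 201 CPM in LysM-Cre cells and 21.2 to 189 CPM in control cells. Col1a1, Col1a2, Acta2 and Sparc were lowest at number 3 in both genotypes, whereas Runx2 and Tagln were not. Dcn, at 0.339, 0.128 and 0 CPM in LysM-Cre cells and 0 CPM in every control, rests on few counts. It was the 1 of 11 tested stromal genes with an unadjusted p under 0.05, beside 6.31% of all tested genes. Col1a1 had 70.5, 73.2 and 8.74 CPM in LysM-Cre libraries 1, 2 and 3, against 65.3, 55.4 and 4.69 CPM in the controls. Neutrophil granule genes summed to 216 to 263 CPM in LysM-Cre cells and 183 to 214 CPM in control cells, without overlap between the groups. Of the 14 tested neutrophil genes, 13 had a positive difference, with a median of 0.25. The part of any of these lists in the results below was not tested.

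Nectin1 (ENSMUSG00000032012, chromosome 9, 43743984 to 43807461) encodes an immunoglobulin-like molecule of cell to cell adhesion. It had 6.82, 6.69 and 4.02 CPM in LysM-Cre cells, against 3.39, 2.44 and 2.27 CPM in control cells. All 3 LysM-Cre libraries lay above all 3 controls, with number 3 nearest to them. The difference was 1.11 on the log2 scale (SE 0.18, interval 0.74 to 1.49), a 2.16-fold ratio, at an adjusted p of 0.0688 by edgeR's quasi-likelihood test. Without the number 3 set it was 1.32 (adjusted p = 0.000383 in that edgeR fit) and Nectin1 passed the threshold. The same gene lay higher in LysM-Cre cells in the other conditions. At day 3 in M-CSF alone it had 4.63, 5.49 and 4.28 CPM in LysM-Cre cells, against 2.38, 2.61 and 2.82 CPM in control cells, a difference of 0.88. With RANKL at day 5 it had 38.2, 47.0 and 39.7 CPM, against 27.3, 27.8 and 27.9 CPM, a difference of 0.59. These 3 comparisons share no library, and in each the groups did not overlap. Their libraries carry the same label numbers, and the LysM-Cre number 3 library held Y-linked counts in every condition (542 to 847). The comparisons may therefore be repeated readings of the same sets and are not taken as independent. Of the 12 tested genes for nectins and their adhesion partners, Nectin1 and Pvr had an unadjusted p under 0.05 (6.31% of all tested genes). Pvr, the poliovirus receptor of the nectin-like family, lay in the other direction (-0.52, interval -0.99 to -0.05), and the list's median was 0.01.

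Mmp9 (ENSMUSG00000017737, chromosome 2, 164940780 to 164955850) encodes a secreted gelatinase that osteoclasts make in quantity. It had 8.95, 12.1 and 17.1 CPM in LysM-Cre cells, against 20.9, 26.8 and 24 CPM in control cells, again with no overlap and with number 3 nearest to the controls. The difference was -0.91 (SE 0.21, interval -1.35 to -0.47, adjusted p = 0.433 by edgeR's quasi-likelihood test). Without the number 3 set it was -1.18 (adjusted p = 0.00766 in that edgeR fit). Mmp9 at day 3 in M-CSF alone had 4.14, 4.30 and 5.88 CPM in LysM-Cre cells, against 7.23, 10.0 and 9.79 CPM in control cells, a difference of -0.92. With RANKL at day 5, where the gene reached 16500 to 23100 CPM in LysM-Cre cells and 18700 to 20200 CPM in control cells, the groups overlapped and the difference was 0.04. The test of the difference between media gave -0.95 at an unadjusted p of 0.00367 and an adjusted p of 1, so the media were not shown to differ by edgeR's quasi-likelihood test.

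**Figure D2:**
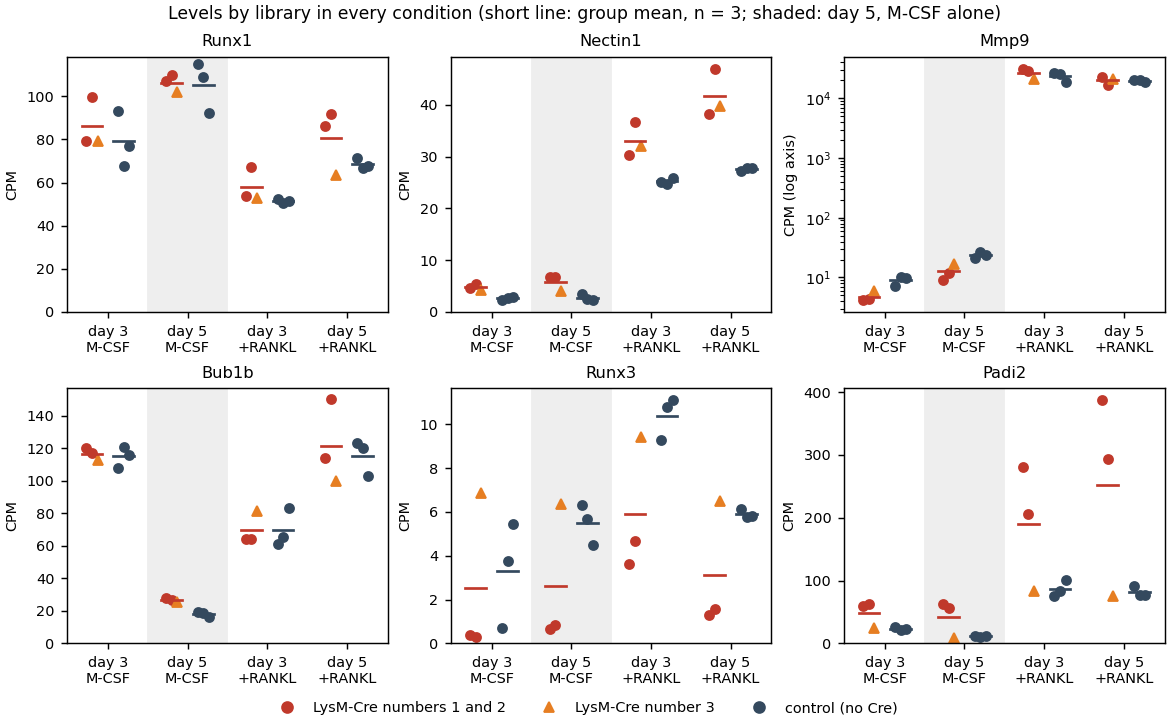
Level in CPM of Runx1, Nectin1, Mmp9, Bub1b, Runx3 and Padi2 in each of the 24 libraries by day and medium, with a log axis for Mmp9 and a short line at each group mean (n = 3). In the shaded condition Nectin1 and Bub1b lie higher and Mmp9 lower in all 3 LysM-Cre libraries, Runx1 overlaps, and for Runx3 and Padi2 the triangle of LysM-Cre number 3 lies with the controls.

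Among other genes of bone resorption, the fusion protein genes Dcstamp and Ocstamp had an unadjusted p under 0.05 at very low levels. Dcstamp had 0.968, 0.640 and 0.851 CPM in LysM-Cre cells, against 1.90, 2.11 and 1.29 CPM in control cells (difference -1.11, interval -1.90 to -0.32). Ocstamp had at most 0.189 CPM in LysM-Cre cells and 0.108 to 0.798 CPM in control cells. With Mmp9 these were 3 of 22 tested resorption genes, all 3 in the lower direction (2.33% of all tested genes), while the list's median was -0.04. Ctsk, the collagen-degrading protease, had a difference of 0.39 (interval -0.18 to 0.96), Acp5, the acid phosphatase used to stain osteoclasts, 0.14 (interval -0.36 to 0.63), and Calcr had 0 counts in all 6 libraries. The regulators of osteoclast formation were centred on 0, with a median of -0.01 over 22 genes. Fosl2, an AP-1 subunit, had 34.5, 43.4 and 73.3 CPM in LysM-Cre cells, against 80.6, 81.5 and 73.0 CPM in control cells (difference -0.64, interval -1.05 to -0.23). Nfatc1, the master regulator of osteoclast formation, had a difference of 0.33 (interval 0.02 to 0.64), and Tnfrsf11a, the RANK receptor, -0.24 (interval -0.69 to 0.20).

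Bub1b (ENSMUSG00000040084, chromosome 2, 118598211 to 118641591) encodes the spindle checkpoint kinase BubR1. It had 27.8, 26.4 and 25.5 CPM in LysM-Cre cells, against 19.1, 18.9 and 16.3 CPM in control cells. The 3 LysM-Cre libraries lay close together, number 3 included, and all lay above the controls. The difference was 0.55 (SE 0.14, interval 0.26 to 0.85), a 1.47-fold ratio, at an unadjusted p of 0.000745 and an adjusted p of 0.509 by edgeR's quasi-likelihood test. Other mitosis genes had the same pattern. All 24 genes of the mitosis list had a positive difference, 11 of them with an unadjusted p under 0.05 in the higher direction (3.98% of all tested genes), and in 19 the groups did not overlap with LysM-Cre cells higher (8.74% of all tested genes). None passed the adjusted threshold, and the genes of this list vary together and are not independent. The list holds Bub1b itself, and its members were chosen with earlier results of these data known, so these counts are a description and not a test. The list's median was 0.41 beside 0.00 over all tested genes.

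Cenpf, Mki67 and Kif11 had the largest differences of the list, followed by Bub1 (0.62, interval 0.09 to 1.16). Cenpf, a kinetochore protein, had 12.4, 11.3 and 12.1 CPM in LysM-Cre cells, against 7.78, 4.50 and 7.63 CPM in control cells (difference 0.85, interval 0.33 to 1.37). Kif11, the motor that pushes spindle poles apart, had 28.1, 30.4 and 27.1 CPM, against 18.1, 17.7 and 18.0 CPM (0.67, interval 0.25 to 1.09). Mki67, which coats mitotic chromosomes and is the usual stain for dividing cells, had 167, 150 and 175 CPM, against 108, 77.5 and 120 CPM (0.68, interval 0.20 to 1.17). In each of these genes number 3 lay with the other LysM-Cre libraries and not with the controls. At the low end of the list, the checkpoint gene Bub3 had a difference of 0.03 and Cdk1, the mitotic kinase itself, 0.02 (interval -0.46 to 0.51). Kif2c, which takes microtubules apart at the kinetochore, and Ect2, which starts the furrow that divides the cell, were outside the list and among the 10 smallest p-values in the higher direction. Both were named for those p-values, so they are no separate test of the list. Kif2c had 10.1, 7.12 and 7.70 CPM in LysM-Cre cells, against 5.29, 4.23 and 4.59 CPM in control cells (0.82, interval 0.42 to 1.22). Ect2 had 20.6, 19.3 and 18.9 CPM, against 12.3, 11.7 and 10.7 CPM (0.76, interval 0.39 to 1.14).

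**Figure D3:**
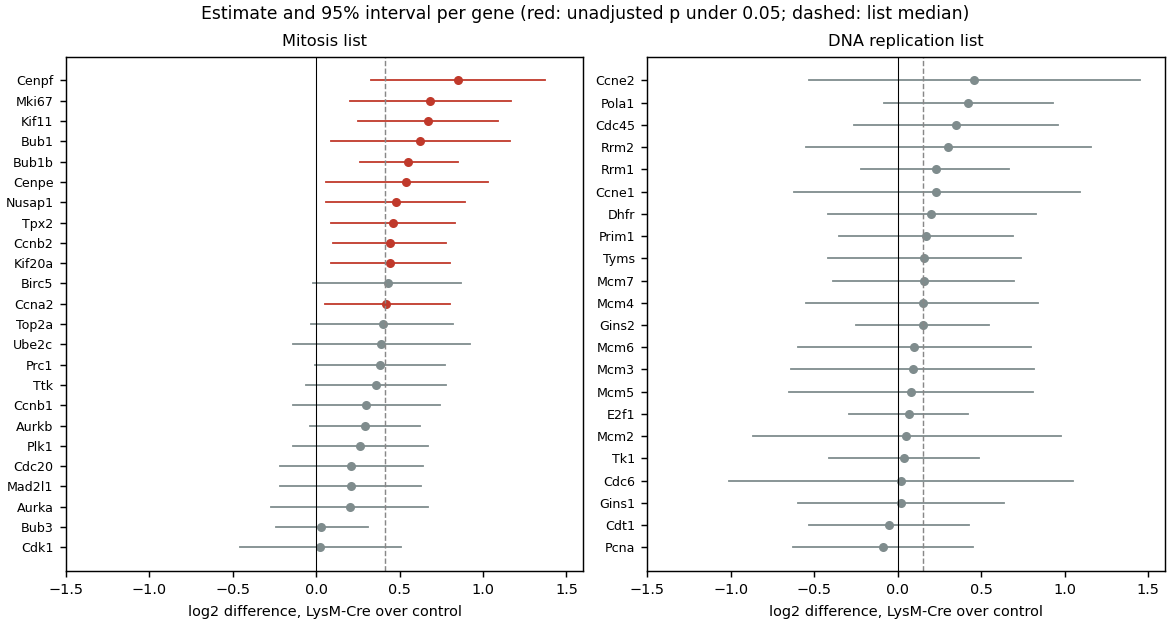
Estimate and 95% interval of the log2 difference (LysM-Cre over control) for each gene of the mitosis list (left) and the DNA replication list (right) at day 5 in M-CSF alone, with the list's median as a dashed line. All 24 mitosis genes lie above 0, with 11 intervals that exclude it, while the replication genes have a median of 0.15 and no interval that excludes 0.

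Summed over the list, mitosis transcripts came to 772, 749 and 786 CPM in LysM-Cre cells, against 578, 549 and 619 CPM in control cells, with no overlap. Both were below the sums of the other conditions. At day 3 in M-CSF alone the sum was 2580 to 4080 CPM in LysM-Cre cells and 2730 to 3520 CPM in control cells, and with RANKL at day 5 it was 2790 to 3880 CPM in LysM-Cre cells and 2830 to 3220 CPM in control cells. The genotypes overlapped in both of those conditions, with list medians of 0.14 at day 3 and 0.08 with RANKL. For Bub1b the difference at day 5 exceeded that at day 3 by 0.53 (unadjusted p = 0.0121, adjusted p = 1 by edgeR's quasi-likelihood test), and 3 of the 24 genes had an unadjusted p under 0.05 for this difference between days (2.25% of all tested genes), so the days were not shown to differ. Without the number 3 set the list's median was 0.39, with 23 genes positive and 8 at an unadjusted p under 0.05 in the higher direction (5.4% of all genes tested in that fit). Leaving out each of the 6 libraries in turn gave medians of 0.37 to 0.40. In a whole culture, more cells in division and more mitotic RNA per dividing cell cannot be told apart. The larger library totals of the LysM-Cre group moved with this result, and their part in it was not tested.

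DNA replication genes had smaller differences. Of 22, 20 had a positive difference and in 12 the groups did not overlap with LysM-Cre cells higher (8.74% of all tested genes), but none had an unadjusted p under 0.05 and the median was 0.15. Their sum was 2060, 2180 and 2180 CPM in LysM-Cre cells, against 2050, 2000 and 1990 CPM in control cells. Pcna, the sliding clamp of replication, had a difference of -0.09 (interval -0.63 to 0.45). Cyclins D and the inhibitors of cyclin-dependent kinases had a median of -0.05. Cdkn2b, an inhibitor of the G1 kinases, was the only one of 15 with an unadjusted p under 0.05 (-0.84), beside 6.31% of all tested genes.

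Many promoters of the mitosis list hold a short sequence known as the CHR, the cell cycle genes homology region, through which the MuvB complex holds genes of late cell cycle phases silent or turns them on. Windows from 250 bases before to 30 bases after the annotated start, from RefSeq on GRCm38.p6, were searched on both strands for TTTGAA or TTCGAA. The windows of Bub1b, Cenpf, Kif11 and Mki67, whose levels are given above, are shown as examples that hold a match, 5′ to 3′ on the gene's strand, with the matches in capitals. A match on the opposite strand reads TTCAAA.
Bub1b (chr2:118597961-118598240, plus strand): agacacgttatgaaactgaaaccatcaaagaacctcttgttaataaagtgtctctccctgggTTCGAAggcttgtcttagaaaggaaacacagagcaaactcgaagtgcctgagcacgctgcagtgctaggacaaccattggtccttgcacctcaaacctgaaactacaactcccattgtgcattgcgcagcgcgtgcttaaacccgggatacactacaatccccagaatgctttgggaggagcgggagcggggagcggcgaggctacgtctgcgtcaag
Cenpf (chr1:189688057-189688336, minus strand): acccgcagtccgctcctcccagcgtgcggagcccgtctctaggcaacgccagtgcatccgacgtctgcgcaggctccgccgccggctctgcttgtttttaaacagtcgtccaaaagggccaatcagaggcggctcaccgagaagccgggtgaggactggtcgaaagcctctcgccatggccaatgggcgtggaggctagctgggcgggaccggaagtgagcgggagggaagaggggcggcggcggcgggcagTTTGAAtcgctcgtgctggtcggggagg
Kif11 (chr19:37376132-37376411, plus strand): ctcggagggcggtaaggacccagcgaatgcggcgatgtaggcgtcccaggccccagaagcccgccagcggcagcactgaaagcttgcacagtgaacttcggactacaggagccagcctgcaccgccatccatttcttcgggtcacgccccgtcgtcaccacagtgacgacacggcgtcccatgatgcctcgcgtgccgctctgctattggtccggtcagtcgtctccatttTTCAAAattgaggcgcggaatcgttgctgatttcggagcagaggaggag
Mki67 (chr7:135716350-135716629, minus strand): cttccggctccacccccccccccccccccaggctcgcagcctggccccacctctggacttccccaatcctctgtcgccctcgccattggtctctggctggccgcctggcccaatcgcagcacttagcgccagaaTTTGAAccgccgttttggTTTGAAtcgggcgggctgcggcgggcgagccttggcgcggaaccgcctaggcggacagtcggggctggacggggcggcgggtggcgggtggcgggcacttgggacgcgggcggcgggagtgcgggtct
The matches begin 188 bases before the start in Bub1b, 3 bases after it in Cenpf, 19 before it in Kif11, on the opposite strand, and 116 and 98 before it in Mki67. Of the 24 mitosis genes, 20 had a window, and 15 of their 22 windows (68.2%) held a match. The share was 16.7% (3 of 18 windows) for DNA replication genes, 13.5% (1813 of 13396) for all tested genes and 18.4% (6052 of 32851) for all windows. Of the 11 mitosis genes with an unadjusted p under 0.05, 8 had a window and 6 of these 8 held a match, a share of 75%. Bub3 and Cdk1, with differences near 0, held matches too. A match is a description of the sequence and not a measured site of binding. The promoters of Nectin1 and Mmp9 are not shown.

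The other genes with the smallest p-values were of mixed function. Ptgfrn, a membrane protein of the immunoglobulin family that binds tetraspanins, had 12.4, 8.44 and 9.31 CPM in LysM-Cre cells, against 3.74, 4.93 and 5.26 CPM in control cells (1.11, interval 0.64 to 1.59). It lay higher also with RANKL at day 5, with 47.2, 32.0 and 27.3 CPM against 15.6, 21.4 and 20.1 CPM (0.90). In both conditions number 3 lay above every control. Itpr1, a calcium release channel of the endoplasmic reticulum, had 45.8, 43.0 and 32.1 CPM, against 27.2, 24.4 and 24.9 CPM (0.66, interval 0.35 to 0.97). Rhod, a small GTPase of endosome movement, had a difference of 1.30, Mfge8, which bridges dying cells to phagocytes, 1.20, the long non-coding RNA Platr25 0.64, and Abhd15, a hydrolase-fold protein best known from adipocytes, 2.13. In the lower direction, Cacna1a, the pore of a voltage-gated calcium channel, had 49.5, 64.1 and 74.3 CPM in LysM-Cre cells, against 129, 109 and 105 CPM in control cells (-0.87, interval -1.28 to -0.45). Its difference was -0.69 at the earlier day and -0.88 under RANKL at day 5. Notch4, a receptor of the Notch family, had 1.69, 3.07 and 3.73 CPM, against 9.28, 6.12 and 5.72 CPM (-1.31, interval -2.03 to -0.59). The tetraspanin Tspan33 had a difference of -1.34, Plk2, a polo-like kinase induced by stress, -0.70, Tanc1, a scaffold protein, -0.65, Hmces, which shields abasic sites in DNA, -0.64, the selenoprotein Selenom -0.63 and the mitochondrial ribosomal protein Mrpl4 -0.30. All of these had an adjusted p between 0.433 and 0.588 by edgeR's quasi-likelihood test.

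Most immediate early and stress genes lay lower in LysM-Cre cells. Of 18, 14 had a negative difference, the median was -0.32, and in 6 the groups did not overlap with LysM-Cre cells lower (8.03% of all tested genes). Ier2, a rapidly induced nuclear factor, had 15.1, 24.4 and 22.4 CPM in LysM-Cre cells, against 36.3, 31.6 and 28.2 CPM in control cells (-0.63, interval -0.95 to -0.32). Ier3, a survival factor, had 8.47, 11.3 and 24.7 CPM, against 30.2, 31.5 and 25.7 CPM (-0.98, interval -1.64 to -0.31). Together with Nqo1, an antioxidant enzyme, these were the 3 members with an unadjusted p under 0.05, all in the lower direction (2.33% of all tested genes). Inflammatory genes also lay mostly lower, 14 of 17 with a negative difference and a median of -0.26. The chemokine Ccl3 had 18.9, 21.2 and 28.2 CPM in LysM-Cre cells, against 40.2, 36.7 and 31.9 CPM in control cells (-0.67, interval -1.14 to -0.20), and its neighbour Ccl4 had a difference of -0.89 (interval -1.62 to -0.16). Tlr4, the lipopolysaccharide receptor, lay on the other side, at 166, 152 and 149 CPM against 135, 133 and 112 CPM (0.30, interval 0.03 to 0.56). Genes of alternative activation had a median of -0.33 over 10, of which 8 had a negative difference. An unadjusted p under 0.05 was reached by 1 in the higher direction (3.98% of all tested genes) and 2 in the lower (2.33%). The higher one was Mgl2, at 5.13, 3.24 and 0.992 CPM in LysM-Cre cells, against 0.748, 1.14 and 1.49 CPM in control cells (1.47, interval 0.33 to 2.61). The lower ones were Il4ra (-0.35, interval -0.63 to -0.07) and Tgm2, a protein cross-linking enzyme. Tgm2 had 32.2, 35.7 and 62.4 CPM in LysM-Cre cells, against 80.3, 71.3 and 61.8 CPM in control cells (-0.71, interval -1.40 to -0.02). At day 3 in M-CSF alone the medians of the stress and inflammatory lists were -0.01 and 0.08, and with RANKL at day 5 they were 0.07 and 0.32. At day 5 in M-CSF alone, leaving out 1 library in turn gave medians of -0.37 to -0.14 for the stress list. The same gave -0.51 to -0.18 for the inflammatory and -0.51 to -0.16 for the alternative activation list. Without the number 3 set the 3 medians were -0.33, -0.24 and -0.51.

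Glycolysis and hypoxia genes had small differences of nearly one sign. Of 20, 19 had a negative difference, with a median of -0.16, and in 9 the groups did not overlap with LysM-Cre cells lower (8.03% of all tested genes). Their sum was 12600, 13400 and 13800 CPM in LysM-Cre cells, against 14300 to 15000 CPM in control cells. Pgk1, a glycolytic kinase, had a difference of -0.27 (interval -0.56 to 0.01). Egln3, an oxygen sensor that hypoxia induces, was the 1 member of 20 with an unadjusted p under 0.05, beside 6.31% of all tested genes. Its difference was -1.15 (interval -2.28 to -0.03), at 0.339, 0.384 and 1.80 CPM against 2.44, 2.38 and 0.773 CPM. All 22 genes of oxidative phosphorylation had an interval within 1 log2 unit of 0 and their median was -0.04.

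Interferon-stimulated genes had a list median of 0.42, the highest of the 31 lists, with all 26 positive, but none had an unadjusted p under 0.05 and in none were the groups free of overlap. Their sum was 2940, 2880 and 1710 CPM in LysM-Cre cells, against 2400, 1740 and 1770 CPM in control cells. LysM-Cre numbers 1 and 2 lay high, number 3 lay lowest of all 6 and control 1 lay between. Ifi44 had a difference of 1.17 (interval -0.26 to 2.60) and Ifit2, which blocks translation of viral RNA, 1.12 (interval -0.30 to 2.54). With the number 3 set left out the median was 0.66, and 7 of the 26 had an unadjusted p under 0.05 in the higher direction (5.4% of all genes tested in that fit). Cholesterol synthesis genes had the same dependence with the other sign: 18 of 20 had a negative difference at a median of -0.20, and without the number 3 set all 20 were negative at a median of -0.43. Leaving out each of the 6 libraries in turn gave medians of -0.43 to 0 for the cholesterol list and 0.31 to 0.66 for the interferon list. Their sum was 1400, 1090 and 1900 CPM in LysM-Cre cells, against 1400, 1800 and 1790 CPM in control cells.

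**Figure D4:**
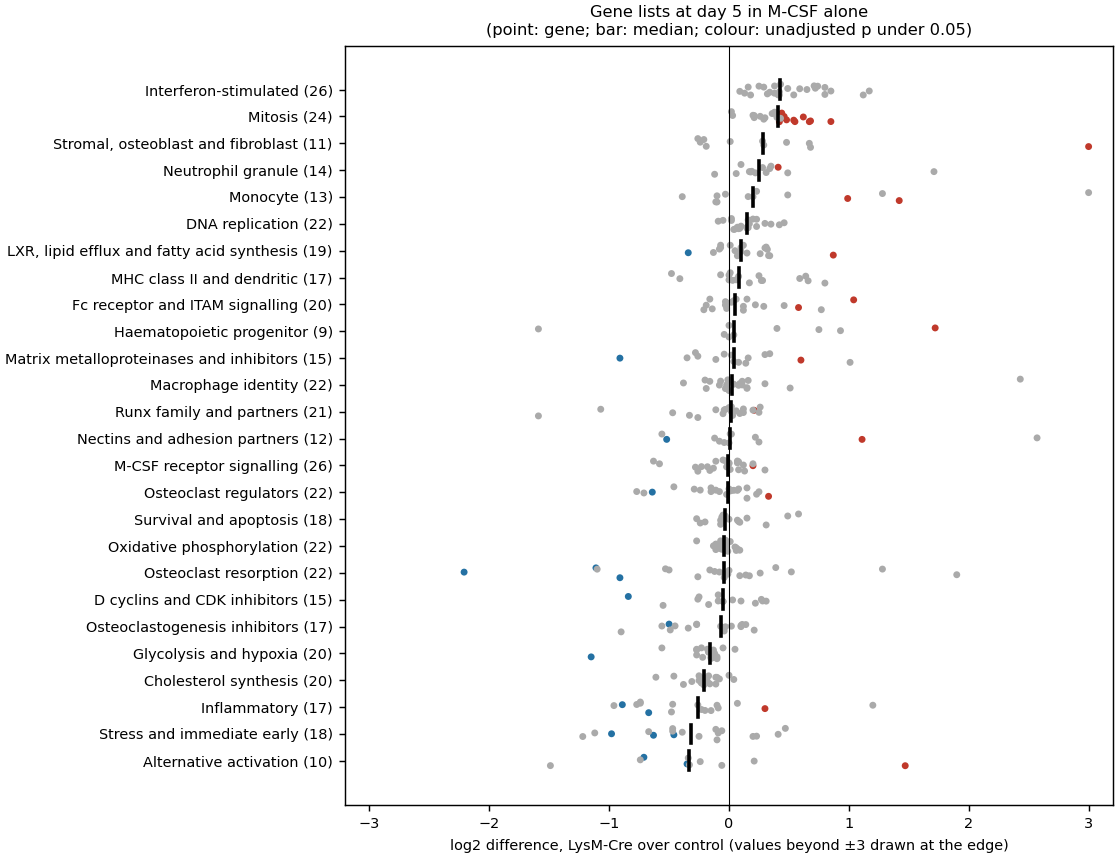
Log2 difference (LysM-Cre over control) of each tested gene in 26 of the 31 gene lists at day 5 in M-CSF alone (not drawn are the sex-linked genes and 4 lists with at most 4 tested genes), with a bar at each list's median and the number of tested genes in brackets; coloured points have an unadjusted p under 0.05. Among the lists drawn, interferon (0.42) and mitosis (0.41) have the highest medians and alternative activation (-0.33) and stress (-0.32) the lowest, while the erythroid and megakaryocyte list, not drawn with its 3 tested genes, has -0.88, and most of the coloured points of the mitosis list lie together on the right.

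The number of genes called changed when the LysM-Cre set of number 3 was left out. Without its 4 libraries, 110 of 15339 tested genes (0.717%) passed edgeR's quasi-likelihood test at an adjusted p under 0.05, 36 higher (0.235%) and 74 lower (0.482%) in LysM-Cre cells, and 26 and 40 of these exceeded a 2-fold ratio. This fit had 2 LysM-Cre libraries at day 5 in M-CSF alone against 3 controls. The count was 61 without control 1, 61 without control 2, 19 without LysM-Cre 1 and 47 without LysM-Cre 2, where the remaining LysM-Cre library is assumed to vary like the other groups. Number 3, which took no part in the calls, lay within the range of the 3 controls in 51 of the 110 genes. It lay beyond the controls in the called direction in 47 and beyond them in the other direction in 12. Taken in the called direction, the median log2 ratio of number 3 to the control mean was 0.10. The 3 controls that set this range and mean did take part in the calls. The positions of number 3 are therefore not independent of how the genes were chosen, and no share over all tested genes is given for them. The medians for numbers 1 and 2, by which the genes were chosen, were 1.30 and 1.05. Numbers 1 and 2 have the Xist and Y-linked pattern of the controls and number 3 has not, and its Lyz1 and Lyz2 levels lay with the controls. The part of either in these counts was not tested.

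**Figure D5:**
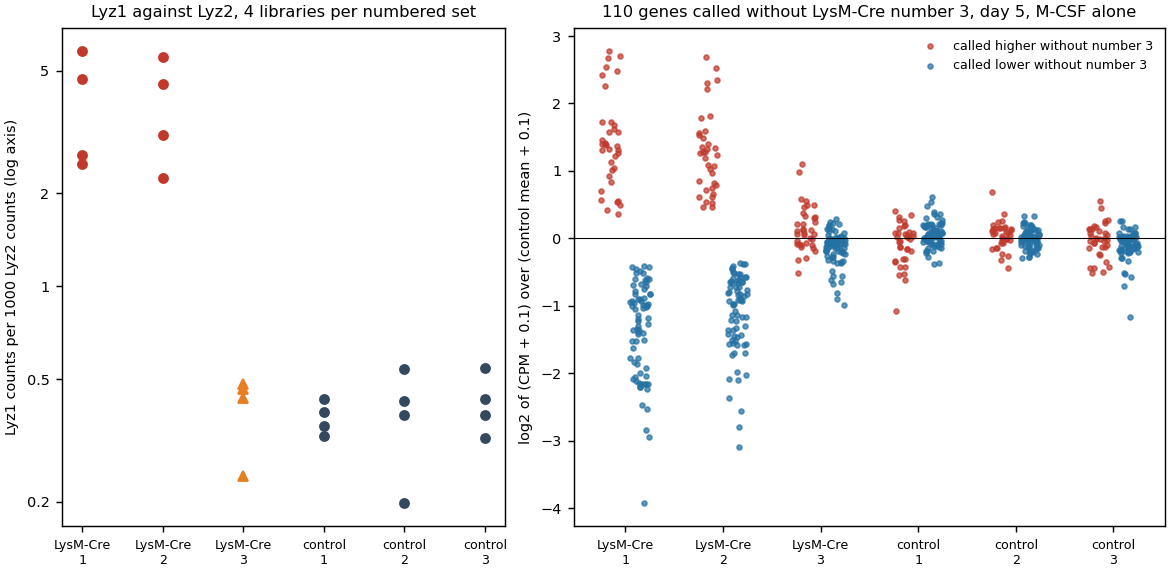
Left, Lyz1 counts per 1000 Lyz2 counts (log axis) in the 4 libraries of each numbered set over the whole series, where LysM-Cre numbers 1 and 2 lie at 2.24 to 5.79 and number 3 at 0.242 to 0.484, with the controls. Right, log2 ratio of each library at day 5 in M-CSF alone to the control mean for the 110 genes called without number 3, where numbers 1 and 2 lie apart by choice of the genes and number 3 is centred near 0.

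Among the genes that rose in LysM-Cre cells without number 3, Padi2, an enzyme that turns arginine to citrulline in proteins, had 62.8, 55.9 and 9.12 CPM in LysM-Cre cells, against 11.1, 10.1 and 12.4 CPM in control cells. Number 3 lay below every control. The difference without number 3 was 2.40 (SE 0.16, interval 2.07 to 2.73, adjusted p = 2.71e-07 in that edgeR fit). Padi2 also rose in the other conditions without number 3, by 2.06 under RANKL at day 5 and by 1.37 at day 3 in M-CSF alone. Ltbp2, a protein of the extracellular matrix, had 22.5, 18.8 and 2.79 CPM, against 3.84, 3.52 and 2.22 CPM (2.69, interval 1.99 to 3.39). Emb, embigin, a partner of monocarboxylate transporters, had 321, 281 and 105 CPM, against 77.8, 108 and 104 CPM (1.63, interval 1.29 to 1.98). In both genes number 3 lay within the controls. Abhd15 and Mfge8 rose by 2.56 and 1.51, with Abhd15 at 21.3, 17.0 and 4.54 CPM against 2.39, 3.90 and 3.45 CPM. Wdfy1, an endosomal adaptor, rose by 1.32, and Pira2, an activating immunoglobulin-like receptor with near-identical copies, by 1.38. Itpr1, Rhod and Ptgfrn also passed without number 3.

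Among the genes that fell, Runx3, the Runx family member best known from T cells and the gut, had 0.677, 0.853 and 6.38 CPM in LysM-Cre cells, against 6.34, 5.69 and 4.48 CPM in control cells. Numbers 1 and 2 lay below every control and number 3 above every control. The difference without number 3 was -2.83 (SE 0.54, interval -3.98 to -1.68, adjusted p = 0.0189 in that edgeR fit), and over all 6 libraries it was -1.07 (interval -2.97 to 0.84). The call was lost when any library other than control 3 was also left out, with an adjusted p of up to 0.417. Runx3 at day 3 in M-CSF alone had 0.402, 0.279 and 6.87 CPM in LysM-Cre cells, against 0.699, 3.78 and 5.44 CPM in control cells. With RANKL at day 5 it had 1.28, 1.56 and 6.49 CPM, against 6.15, 5.79 and 5.81 CPM, so the split between numbers 1 and 2 and number 3 recurred in each condition. Cbfb, the common partner, had a difference of 0.02 (interval -0.30 to 0.34). The upstream of 2 annotated Runx3 starts is shown because it holds 2 copies of the RUNX element within a few bases. The window was searched on both strands for TGTGGT or TGCGGT, and the matches, in capitals, read ACCACA because they lie on the opposite strand.
Runx3 upstream start (chr4:135120395-135120674, plus strand): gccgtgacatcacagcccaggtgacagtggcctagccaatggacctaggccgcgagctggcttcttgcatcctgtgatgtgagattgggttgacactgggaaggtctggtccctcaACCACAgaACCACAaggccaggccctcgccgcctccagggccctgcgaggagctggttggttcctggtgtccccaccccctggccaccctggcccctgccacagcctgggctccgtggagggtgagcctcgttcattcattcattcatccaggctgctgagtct
These matches begin 134 and 126 bases before the start. The window of the downstream start held none. Of all windows, 20.8% held at least 1 match, as did 19.6% of windows of tested genes, 18.8% of those of the genes that fell without number 3 (13 of 69) and 11.5% of those of the genes that rose (3 of 26).

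Igf2r, the receptor that clears IGF2 and carries lysosomal enzymes, had 102, 135 and 426 CPM in LysM-Cre cells, against 405, 421 and 336 CPM in control cells (-1.71 without number 3, interval -2.01 to -1.42). It overlaps the antisense transcript Airn, which fell too (-2.43), and without a stated strand setting their reads cannot be told apart. Pf4, the platelet chemokine that macrophages also express, had 568, 604 and 1300 CPM, against 1500, 1530 and 1450 CPM (-1.35, interval -1.89 to -0.82). Number 3 lay between the other LysM-Cre libraries and the controls. Nptx1, a secreted pentraxin of neurons, had 6.44, 14.2 and 85.6 CPM, against 144, 87.7 and 67.1 CPM (-3.26, interval -4.40 to -2.12), and the controls themselves differed by more than 2-fold. Mapk11, the p38 beta kinase, fell by 2.19, Sel1l3 by 1.56, and Ctla2a, a protease inhibitor, by 1.93, with 4.89, 6.74 and 18.3 CPM against 23.5, 20.5 and 22.5 CPM. Members of the gene lists that passed in the lower direction were Runx3, Mmp9, Fosl2, Tgm2, Pvr, Ccl3, Egln3, Ier3 and Pf4, and in the higher direction Nectin1, Pira2 and Lyz1. Of the 110 genes, 16 passed in every fit that left out 1 of the 5 remaining libraries, among them Padi2, Igf2r, Emb, Nectin1, Ltbp2, Abhd15, Wdfy1, Mapk11, Ctla2a and Lyz1. The calls on Mmp9, Fosl2 and Nptx1 were lost without LysM-Cre 1, with adjusted p-values of 0.283, 0.105 and 0.289, and that on Pf4 was lost without any of the 4 libraries other than control 3, at up to 0.383.

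The 110 genes were then read in conditions whose libraries took no part in the contrast. In the day 3 libraries in M-CSF alone without number 3, where 35 of 15339 genes (0.228%) were called, 109 of the 110 had the same sign and 30 were called. With RANKL at day 5, where 39 genes (0.254%) were called, 94 had the same sign and 12 were called. These libraries carry the same label numbers and the same fit estimates their spread, so the conditions may not be independent of one another. The share of all tested genes with the same sign is not given, so the counts of signs have nothing to be read against. Between days no gene was called (0%) without number 3. Between media 7 genes (0.0456%) were called, among them Emb, whose difference of 1.63 in M-CSF alone stood beside 0.19 with RANKL, and Igf2r, with -1.71 beside -0.51. In the fit of all libraries no gene passed at day 3 in M-CSF alone (0%; 530 or 3.53% at an unadjusted p under 0.05), with RANKL at day 5 (0%; 457 or 3.04%), between days (0%; 338 or 2.25%) or between media (0%; 481 or 3.2%) by edgeR's quasi-likelihood test.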

How the data were processed

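The authors deposited 1 count table: whole numbers of reads by gene in 24 libraries, with an identifier, a symbol and a position for 54532 genes. Libraries were made from 250 ng of total RNA with a TruSeq kit, per the labels' protocols. STAR, DESeq2 and GRCm39 are named in the submitters' processing notes, without versions, counting settings or strand. Of the identifiers, 54495 were found in GENCODE M21 of GRCm38 and 53585 of these (98.3%) lay at an identical position there, so printed positions, taken from the deposited table, are on GRCm38.

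Counts were tested with edgeR 4.0.16 in R 4.3.3: filterByExpr (15035 genes kept, 27.6%), TMM scaling, and a robust quasi-likelihood fit over the 24 libraries with 8 group coefficients (3 libraries each). The contrast was LysM-Cre minus control at day 5 in M-CSF alone, with Benjamini-Hochberg adjustment over all tested genes and a threshold of 0.05. Each standard error is the fold change over the root of its F statistic, and intervals are 95% ones. CPM are shares of the TMM-scaled library size. Of the tested genes, 151 had 0 counts in all 6 libraries and no interval. The fit and its scripts were tested on simulated counts. Alternatives were DESeq2 1.42.0, limma 3.58.1, other scaling, filters and libraries. Lists (31, with 538 symbols) are described by counts and medians, with a symbol that occurs more than once taken as its identifier with most counts. The members and lists were chosen with earlier results of these data known.

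Genes were named by rule: the 10 smallest p in each direction among autosomal genes that averaged 1 log2 CPM or more, Nectin1, Mmp9, Bub1b and Runx1, list members with the smallest p, and the largest rises and falls without the number 3 set. Others, such as Bub3, Cdk1, Ifit2, Pgk1, Il7r, Cd4 and Ccr2, were chosen after their values were seen. The numbers 1 to 3 were not taken as pairs. Deviations of same-numbered libraries from their group means correlated at 0.01, 0.04 and 0.21, and those of differently numbered ones at -0.15 to 0.13. With 3 libraries per group these correlations cannot decide whether the numbers mark shared sets. Some genes, such as Col1a1, were low at number 3 in both genotypes.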

Additional observations from a re-analysis of the deposited data

Results flagged for a closer look

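Ccl2, the monocyte chemokine, stood out because its genotype differences had opposite signs in the 2 media at day 5, with no overlap between genotypes in either. In M-CSF alone it had 52.0, 97.3 and 91.6 CPM in LysM-Cre cells, against 186, 115 and 102 CPM in control cells (difference -0.74, interval -2.63 to 1.15). With RANKL it had 56.9, 55.4 and 37.9 CPM in LysM-Cre cells, against 36.0, 37.0 and 36.8 CPM in control cells (0.45). The difference between media was -1.19 with an unadjusted p of 0.366 and an adjusted p of 1 by edgeR's quasi-likelihood test.

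Without the number 3 set, 7 genes passed the test of the difference between media at day 5 itself, each at an adjusted p of 0.0358 by edgeR's quasi-likelihood test. These differences between media were 1.59 for Pira2, 1.44 for Emb and 0.77 for Ank, a pyrophosphate transporter. They were -0.93 for Ggta1, an enzyme that adds galactose to glycans, -1.21 for Igf2r, -1.45 for 2900026A02Rik and -3.66 for the transporter Slco2b1. Slco2b1 and Ank did not pass between genotypes in M-CSF alone, with differences of 0.25 and 0.11, and the Slco2b1 value comes from its difference of 3.91 with RANKL. Over all 24 libraries none of the 7 passed.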

How the results depend on the processing

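The count of 0 genes between genotypes at day 5 in M-CSF alone was kept with RLE size factors, the 6 or the 12 M-CSF libraries alone, and limma with the numbered set as a random effect (correlation 0.0697). In that order, 942 of 15035, 1610 of 12817, 685 of 13758 and 900 of 15035 tested genes had an unadjusted p under 0.05. It was 2 with DESeq2, 1 without a filter on low counts, 3 with the label number as a replicate block and 110 without the 4 LysM-Cre number 3 libraries. The genes of the block, whose numbers are not said to pair the samples, were Nectin1, Ddx3y and Tnfsf8. Leaving out 1 of the 6 libraries gave 0 to 22, with 3 without control 1 and 22 without LysM-Cre 3. The count of 110 was 109 with RLE size factors, 259 with DESeq2, 93 with the replicate block, 112 over the genes kept in all 24 libraries, 550 in the 5 libraries alone and 19 to 82 without 1 of them. Of the 110, 109 were also called by DESeq2, 97 in the 5 libraries alone and 82 with the block. At day 3 in M-CSF alone the count of 0 became 1 with the block and 35 without number 3. With RANKL at day 5 it became 6 with DESeq2, 1 with the block, 39 without number 3 and 0 to 7 without 1 library. Between media it became 7 without number 3, and between days it stayed at 0 in all that were run. The cause of these changes was not tested.

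Runx1's difference ran from -0.09 to 0.07 without 1 library. Of the 1092 values of 73 other named genes under these alternatives, 1022 kept their direction and their side of the threshold, 51 passed it and 19 changed sign. Without the number 3 set the sign changed for Acp5 (-0.04), Cbfb (-0.01) and Cdk1 (-0.02). Without single libraries the differences ran from -0.04 to 0.36 for Acp5, -0.02 to 0.04 for Csf1r, -0.16 to 0.00 for Pcna, -0.01 to 0.06 for Cbfb, 0.00 to 0.05 for Bub3, -0.03 to 0.11 for Cdk1, -0.31 to 0.01 for Il7r and -0.35 to 0.12 for Ighm. With 1 count worth at least 0.0426 CPM, genes under about 1 CPM, such as Ocstamp, rest on few counts. Differences smaller than the half-width of a gene's interval, a median of 0.31 log2 units from 1 log2 CPM upwards, did not reach an unadjusted p of 0.05. At this depth and number of libraries, larger ones could also miss the adjusted threshold. Bub1b, at 0.55, had an adjusted p of 0.509 by edgeR's quasi-likelihood test. Alternatives to the count of 110, and leaving out number 3 in the other conditions, were chosen after seeing the data.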
